A study of Mus musculus with 6 samples.

Results

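The genes described here are 40 genes of glycolysis and of the response to low oxygen, taken by gene symbol from a table of 41795 features. All 40 symbols were found, each in 1 row. They were chosen for their known roles, 24 for glucose uptake, the glycolytic steps and the fate of pyruvate, and 16 as oxygen sensors or hypoxia-induced genes. Earlier results of these data were known when they were chosen. RNA was sequenced from breast tumour cells of FVB/N-Tg(MMTV-PyVT)634Mul/J mice. This strain carries the polyoma virus middle T antigen under the mouse mammary tumour virus promoter, which drives it in mammary epithelium, so both states come from tumours of the same transgene. There were 3 libraries labelled quiescent cancer stem cells (CSCs), tumour cells able to regrow a tumour but resting outside the cell cycle, and 3 labelled activated CSCs. The labels used here give no age, no sorting marker and no way of activation. They do not say whether libraries came from separate animals or cultures, so p-values measure the spread between these libraries, which may be technical.

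Glycolysis splits glucose into pyruvate, and cells either pass pyruvate to the mitochondria or reduce it to lactate and export it. Many steps have several isozymes, encoded by separate genes with different tissue use. When oxygen falls, the prolyl hydroxylases of the EGLN family stop marking the factor HIF-1 alpha for destruction, and HIF-1 then binds hypoxia response elements, whose core is ACGTG or GCGTG, near glycolytic and other genes. Tumours often keep glycolysis high even with oxygen present.

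Library totals ran from 17785331 to 20510377 counts, and the 40 genes together held between 0.862 and 0.899% of each quiescent total and between 0.999 and 1.09% of each activated total. Levels are CPM, counts relative to the library total after TMM scaling, and levels of different genes are compared as RPKM, CPM per kb of gene length. This length was deposited with the counts and can differ from that of a transcript. Epithelial markers summed to 7229 to 7509 CPM in quiescent and 6471 to 6672 CPM in the activated libraries. Of these 6 markers Epcam and Cdh1 were called lower, Krt14 was called higher and 3 did not pass. Fibroblast markers summed to 758 to 785 and 1344 to 1496 CPM, with 5 of 6 called higher. Macrophage markers summed to 94.6 to 114 and 101 to 107 CPM, with 1 of 6 higher and 1 lower. Endothelial markers summed to 2.65 to 3.54 and 2.78 to 4.0 CPM, with none of 3 tested called and Cldn5 at 0 counts. Skeletal muscle markers summed to 12.3 to 13.3 and 13.3 to 16.1 CPM, with 2 of 3 tested called higher and 1 lower. Red cell markers were at 0.105 to 0.758 and 0.224 to 0.586 CPM, with 4 of 5 at 0 counts. In such bulk libraries, fewer cells of a type and less RNA per cell cannot be told apart.

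The promoters of the members that moved most in each direction are shown first, to set the response element core beside the changes given below. RefSeq windows of 300 bases (build GRCm38.p6, 250 before and 50 from the transcript start on) were matched for 37 of the 40 genes. The 3 members with the largest rise and the 3 with the largest fall among those matched and called are printed 5′ to 3′ on the gene's strand, in lower case with ACGTG and GCGTG on either strand in capitals.
Aldoc (chr11:78322823-78323122, plus strand): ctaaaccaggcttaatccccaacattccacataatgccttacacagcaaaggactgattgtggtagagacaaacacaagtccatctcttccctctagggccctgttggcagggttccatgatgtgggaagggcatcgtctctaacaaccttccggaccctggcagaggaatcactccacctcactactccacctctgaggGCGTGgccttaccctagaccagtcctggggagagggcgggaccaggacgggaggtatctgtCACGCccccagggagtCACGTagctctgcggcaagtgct
Slc16a3 (chr11:120948817-120949116, plus strand): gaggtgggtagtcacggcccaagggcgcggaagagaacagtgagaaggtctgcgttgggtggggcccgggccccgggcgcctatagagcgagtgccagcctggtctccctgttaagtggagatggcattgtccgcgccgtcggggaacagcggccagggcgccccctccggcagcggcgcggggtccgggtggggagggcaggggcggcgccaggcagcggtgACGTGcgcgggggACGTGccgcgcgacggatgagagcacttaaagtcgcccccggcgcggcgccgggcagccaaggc
Ankrd37 (chr8:45999801-46000100, minus strand): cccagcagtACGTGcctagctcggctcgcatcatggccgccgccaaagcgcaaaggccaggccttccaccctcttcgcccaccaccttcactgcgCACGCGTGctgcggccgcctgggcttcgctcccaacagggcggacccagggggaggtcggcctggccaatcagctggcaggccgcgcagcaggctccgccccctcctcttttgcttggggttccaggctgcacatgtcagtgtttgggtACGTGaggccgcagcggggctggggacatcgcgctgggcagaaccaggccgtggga
Hilpda (chr6:29272238-29272537, plus strand): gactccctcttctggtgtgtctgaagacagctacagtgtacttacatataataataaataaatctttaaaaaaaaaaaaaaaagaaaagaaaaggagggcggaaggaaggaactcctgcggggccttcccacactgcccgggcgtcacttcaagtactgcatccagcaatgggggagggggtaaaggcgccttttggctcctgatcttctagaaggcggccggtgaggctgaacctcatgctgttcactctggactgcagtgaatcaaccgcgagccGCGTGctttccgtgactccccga
Adm (chr7:110627407-110627706, plus strand): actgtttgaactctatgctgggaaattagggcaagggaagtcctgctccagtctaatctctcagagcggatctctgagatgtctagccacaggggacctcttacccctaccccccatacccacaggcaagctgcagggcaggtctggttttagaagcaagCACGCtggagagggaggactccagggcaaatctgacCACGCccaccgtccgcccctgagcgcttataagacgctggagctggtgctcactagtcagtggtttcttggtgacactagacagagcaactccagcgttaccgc
Slc2a1 (chr4:119108495-119108794, plus strand): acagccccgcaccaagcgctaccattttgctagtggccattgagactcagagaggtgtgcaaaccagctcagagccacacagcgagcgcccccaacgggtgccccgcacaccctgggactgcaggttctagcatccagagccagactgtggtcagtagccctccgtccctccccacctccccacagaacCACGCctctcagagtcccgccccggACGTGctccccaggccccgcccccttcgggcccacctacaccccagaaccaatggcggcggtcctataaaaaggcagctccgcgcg
The first 3 genes rose and the last 3 fell, and each of the 6 windows held at least 1 core. At least 1 core of either kind also stood in 59.6% of the windows of tested genes. That share was 43.8% of all windows and 79.6% of the windows of members. The window of Ankrd37 held 4 matches, that of Aldoc 3, those of Slc16a3, Adm and Slc2a1 2 each, and that of Hilpda 1. Both cores were searched on both strands, and the palindrome CACGTG, which other factors also bind, contains ACGTG on each strand. Over the 54 windows of the 37 genes, 53.7% held ACGTG, against 19.6% of all 32851 windows and 24.4% of the 14547 windows of tested genes. For GCGTG the shares were 59.3%, 32.4% and 48.2%, and for CACGTG 11.1%, 7.15% and 9.41%. ACGTG stood in 17 of 30 windows of members that rose (56.7%), in 4 of 7 of those that fell (57.1%) and in 8 of 17 of those that did not pass (47.1%). With 7 windows of members that fell, these shares are coarse. Several genes have more than 1 window, and Aldoc and Hilpda have 2 each, of which 1 is shown. A match is a description of letters, and binding was not measured. The members were chosen as glycolytic and hypoxia-induced genes, near which HIF-1 binds these cores. A larger share of cores than in other genes therefore describes the list and not these libraries.

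The comparison of activated with quiescent CSCs asked which of these genes differ between the states. Of the 40 genes, all of which passed the filter on low counts, 21 were higher in activated CSCs and 7 lower, and 12 did not pass (edgeR quasi-likelihood test, Benjamini-Hochberg adjusted p under 0.05 over all 15223 genes tested). The 40 are 52.5% higher and 17.5% lower, against a background of 24.1% of all genes tested called higher and 23.4% lower. As the genes were chosen with earlier results of these data known, these shares are a description. In 22 of the 40 every activated library lay above every quiescent one and in 8 every one lay below, against 27.9% and 28.0% of all genes tested (55.9% in either direction). The median log2 fold change of the 40 was 0.25 (0.23 without Gapdh, whose counts were unstable), against -0.0032 over all genes tested. Of the 24 glycolytic genes 14 were higher and 3 lower (median 0.34), and of the 16 oxygen sensing and hypoxia-induced genes 7 were higher and 4 lower (median 0.07). Leaving out each library in turn gave 17 to 23 of the 40 higher and 5 to 7 lower. The 23 higher, with 6 lower, came without activated replicate 1, which had lower glycolytic levels than its fellows as described below. Adjusted p values given for genes below come from the edgeR fit of all 6 libraries unless another fit is named.

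**Figure D1:**
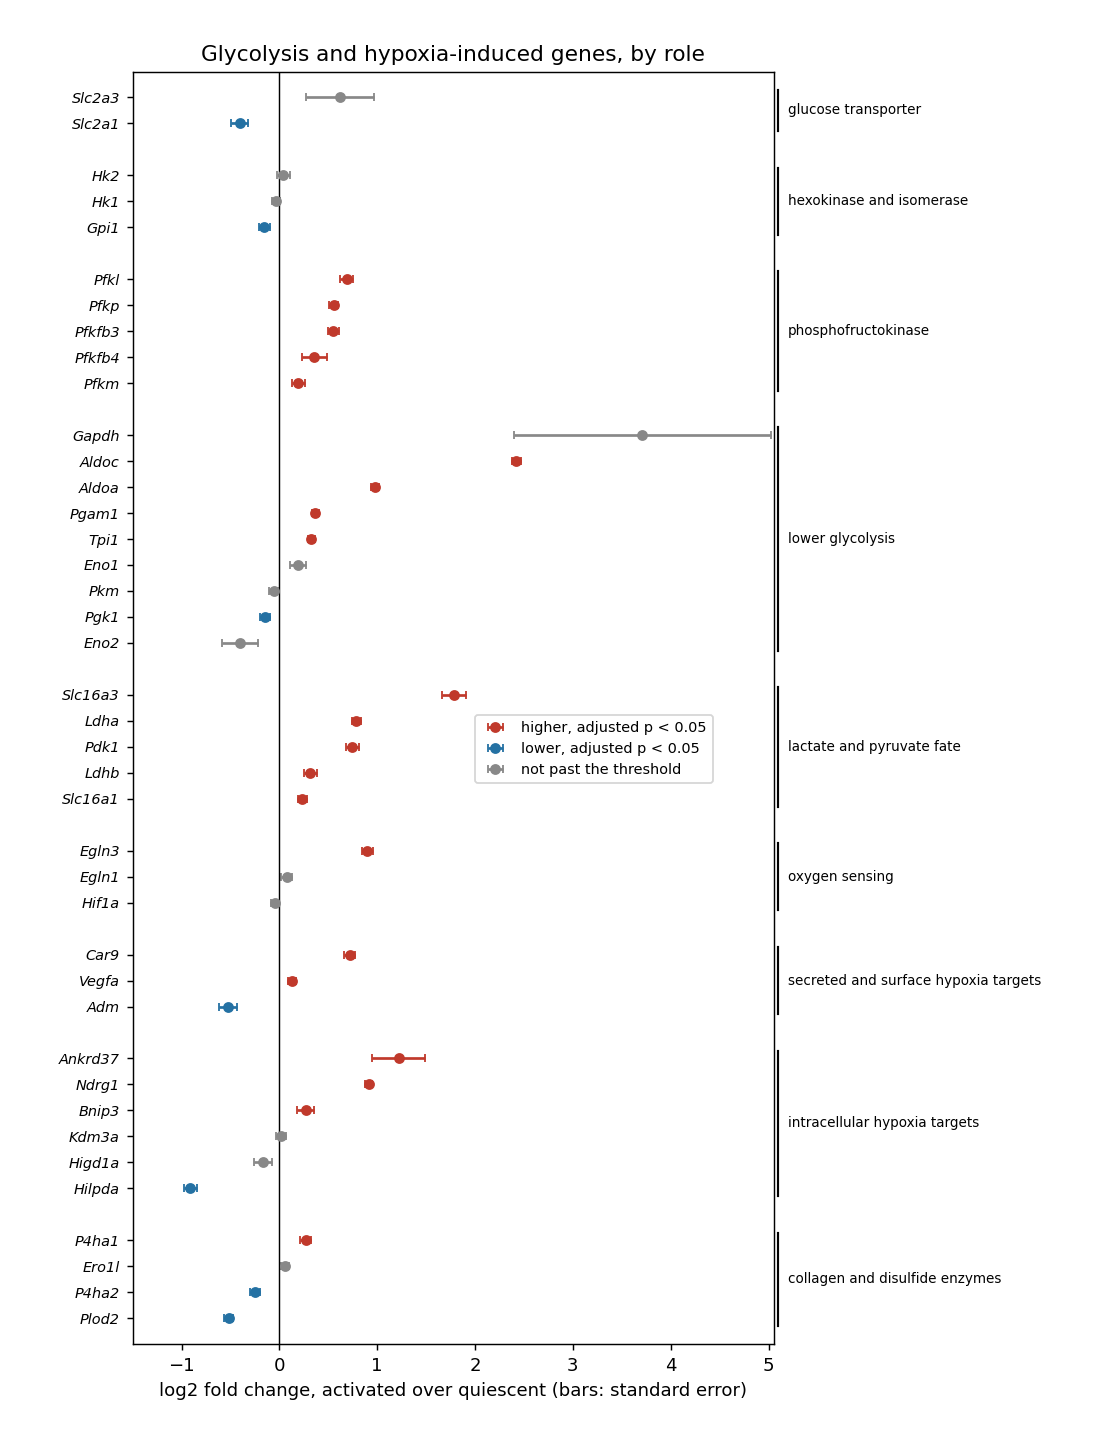
Log2 fold change of each of the 40 genes, activated over quiescent, grouped by role, with bars for the standard error; red genes were called higher, blue lower and grey not past the threshold. All 5 phosphofructokinase genes and all 5 genes of pyruvate and lactate fate lie to the right of 0, while the glucose transporter Slc2a1 and the hypoxia target Hilpda lie to the left.

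The main glucose transporter was lower in activated CSCs. Slc2a1 encodes GLUT1, the main glucose transporter of most tumour cells. It was at 268, 254 and 267 CPM in the quiescent and 172, 217 and 207 CPM in the activated libraries. All activated libraries lay below all quiescent ones, with activated replicate 1 the lowest, and the level was 1.33-fold lower (log2 -0.41, SE 0.09, adjusted p = 0.0081). Slc2a3, the high-affinity transporter GLUT3, was at 0.787, 0.541 and 0.473 CPM in the quiescent and 0.840, 1.04 and 0.879 CPM in the activated libraries, on 9 to 19 counts each. The activated libraries lay above the quiescent ones, but the difference did not pass (log2 0.61, SE 0.35, adjusted p = 0.16).

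The hexokinases, which trap glucose by phosphorylating it, did not pass the test. Hk1 was at 243, 241 and 250 CPM in the quiescent and 227, 241 and 248 CPM in the activated libraries, which overlapped (log2 -0.03, SE 0.04, adjusted p = 0.52). Hk2, the isozyme often induced in tumours, was at 39.2 ± 3.75 and 40.4 ± 1.06 CPM (SD, n = 3; adjusted p = 0.65). Gpi1, which converts glucose 6-phosphate to fructose 6-phosphate, was at 389, 377.5 and 404 CPM in the quiescent and 315, 365 and 373 CPM in the activated libraries. Its activated levels lay below all quiescent ones (log2 -0.15, SE 0.06, adjusted p = 0.048), but the call was lost in 7 of 15 other settings. These include leaving out quiescent replicate 1, 2 or 3 (adjusted p = 0.11, 0.07 and 0.16) or activated replicate 1 (log2 -0.075, adjusted p = 0.072).

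Phosphofructokinase, the committing step of glycolysis, was higher in all of its genes. Pfkp, the platelet-type isozyme, was at 106, 105 and 98.4 CPM in the quiescent and 145, 151 and 159 CPM in the activated libraries. The states were well apart, with a 1.47-fold rise (log2 0.56, SE 0.045, adjusted p = 2.2e-08). Pfkl, the liver-type isozyme, rose 1.61-fold, from 213 ± 4.83 to 344 ± 34.4 CPM (adjusted p = 1.5e-05). Its activated replicate 1, at 305 CPM, lay below the 359.5 and 368 CPM of the others. Pfkm, the muscle-type isozyme, rose less, from 35.9 ± 1.91 to 41.1 ± 3.35 CPM (adjusted p = 0.024), and it was not called by DESeq2 (adjusted p = 0.056), nor after leaving out quiescent replicate 2 or 3 (adjusted p = 0.12 and 0.069) or activated replicate 3 (adjusted p = 0.15).

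The bifunctional enzymes PFKFB3 and PFKFB4 make and break down fructose 2,6-bisphosphate, the activator of phosphofructokinase. Pfkfb3 was at 34.1, 38.0 and 36.6 CPM in the quiescent and 53.0, 51.9 and 54.4 CPM in the activated libraries. It rose 1.47-fold with no overlap between the states (log2 0.55, SE 0.06, adjusted p = 4.7e-07). Pfkfb4 rose 1.28-fold, from 5.91 ± 0.401 to 7.58 ± 0.476 CPM (adjusted p = 0.028), which DESeq2 did not call (adjusted p = 0.093), nor edgeR after leaving out quiescent replicate 1 or 3 (adjusted p = 0.098 and 0.051) or activated replicate 2 (adjusted p = 0.1).

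The largest rise of all members called was in aldolase, which splits fructose 1,6-bisphosphate. Aldoc, the isozyme typical of brain, was at 38.8, 35.1 and 40.3 CPM in the quiescent and 203, 203 and 206 CPM in the activated libraries. It rose 5.36-fold with little spread in either state (log2 2.42, SE 0.05, adjusted p = 7.7e-16). Aldoa, the widespread isozyme, was at 745, 732 and 784 CPM in the quiescent and 1444, 1518 and 1501 CPM in the activated libraries. It rose 1.98-fold (log2 0.98, SE 0.04, adjusted p = 3.5e-12) and stayed the more abundant isozyme per length, at 469.7 against 71.0 RPKM in activated CSCs.

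The steps after aldolase moved less and not all one way. Tpi1, which interconverts the triose phosphates, rose 1.26-fold from 257 ± 8.55 to 322 ± 9.98 CPM (adjusted p = 2.7e-06). Pgam1, the phosphoglycerate mutase, rose 1.29-fold from 182 ± 6.31 to 235 ± 2.51 CPM (adjusted p = 4.6e-07). Pgk1, the first ATP-forming kinase of the pathway, fell 1.11-fold, from 431 ± 15.1 to 389.5 ± 27.0 CPM (adjusted p = 0.02), and did not pass without quiescent replicate 3 (adjusted p = 0.09).

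Enolase and pyruvate kinase did not pass. Eno1, the widespread enolase, was at 568, 557 and 592 CPM in the quiescent and 567, 692 and 696 CPM in the activated libraries. Only activated replicate 1 overlapped the quiescent libraries (adjusted p = 0.094), and without it Eno1 was called higher (log2 0.28, adjusted p = 9.2e-08). Eno2, the neuronal enolase, was at 3.62 ± 0.559 and 2.74 ± 0.247 CPM (adjusted p = 0.088). Pkm, pyruvate kinase, was the most abundant member per length, at 1030 and 991 RPKM, and its 3022 ± 112 and 2907 ± 138 CPM overlapped (adjusted p = 0.33). The counts are per gene, so its M1 and M2 splice forms were not separated.

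All 5 genes of the fate of pyruvate were higher. Ldha, the lactate dehydrogenase subunit that favours lactate formation, was at 650.3, 647 and 686 CPM in the quiescent and 1054, 1171 and 1196 CPM in the activated libraries. It rose 1.73-fold with a wide gap between the states (log2 0.79, SE 0.05, adjusted p = 6.8e-10). Ldhb, the subunit that favours pyruvate, rose 1.25-fold, from 44.0 ± 3.25 to 54.8 ± 3.25 CPM (adjusted p = 5.3e-04). Slc16a3, which encodes the lactate exporter MCT4, was at 4.56, 4.17 and 3.73 CPM in the quiescent and 13.0, 15.8 and 14.1 CPM in the activated libraries. This low-abundance gene rose 3.44-fold (log2 1.78, SE 0.12, adjusted p = 2.9e-09), on 71 to 81 counts in the quiescent and 232 to 289 in the activated libraries. Slc16a1, which encodes the lactate transporter MCT1, rose 1.17-fold to 85.8 ± 1.21 CPM (adjusted p = 5.1e-04). Pdk1, the kinase that shuts pyruvate dehydrogenase, rose 1.68-fold from 28.1 ± 2.12 to 47.1 ± 1.16 CPM (adjusted p = 4.4e-08).

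**Figure D2:**
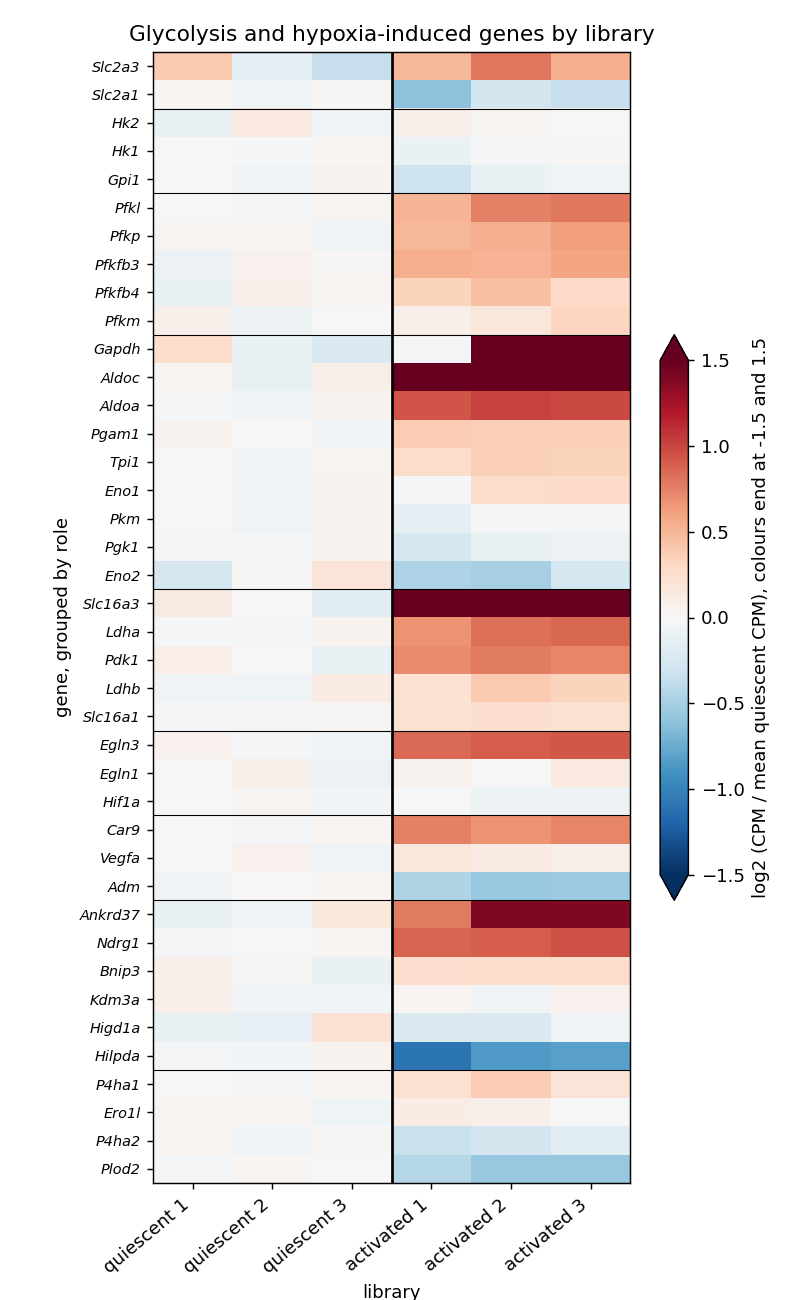
Level of each of the 40 genes in each of the 6 libraries, as log2 of its CPM over its mean quiescent CPM, with red for higher and blue for lower and the genes grouped by role. The first activated column is paler than the other 2 for many glycolytic genes such as Eno1 and Pfkl, and Gapdh is high in activated replicates 2 and 3 only.

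Within the activated state, the glycolytic genes differed between libraries in a common direction. In 22 of the 24 glycolytic genes, all but Hk2 and Pgam1, activated replicate 1 lay below the mean of the other 2 activated libraries, against 49.9% of the 15212 tested genes with a value. The median log2 difference was -0.11 for the 24 genes and 0.0 for all tested genes. Among the 24 the difference was -4.26 for Gapdh, -0.30 for Slc2a1, -0.29 for Eno1 and -0.26 for Pfkl. This difference was noticed in the data and is a description of these 3 libraries. Replicate 1 also stood apart beyond the 24 genes. Over all but low-count genes, its chi-square per degree of freedom was 7.47 against replicate 2 and 7.99 against replicate 3. Between replicates 2 and 3 it was 4.01.

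Gapdh, which oxidises glyceraldehyde 3-phosphate and often serves as a reference transcript, differed more within the activated state than between the states. It had 98, 79 and 75 counts in quiescent libraries and 81, 1052 and 2389 counts in activated ones. Activated replicate 1 lay within the quiescent range, while the other 2 differed from each other, so the highest CPM within the activated state was 25.7 times the lowest. Its log2 fold change of 3.71 (SE 1.32) did not pass (adjusted p = 0.087). It was called without activated replicate 1 (log2 4.26, adjusted p = 0.0068), with DESeq2 (adjusted p = 0.0021) and without robust estimation (adjusted p = 0.0059).

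Swings within a state were taken with levels under 1 CPM set to 1 CPM, so they say little about genes as low as Slc2a3. No other member then swung more than 3-fold. The next largest swing was 1.54-fold, for Ankrd37, and 37 of the 40 stayed under 1.3-fold. With this floor, features under 1 CPM in every library could not swing. Among all 41795 features, of which 15223 were tested, 196 swung more than 3-fold. Among these were the related genes Pgm2, at 562, 255 and 45 against 18, 226 and 47 counts, and Errfi1, at 87, 69 and 72 against 43, 67 and 371 counts. At 2.22 RPKM in quiescent CSCs Gapdh stood far below Tpi1 (160.4 RPKM) and Pgk1 (236 RPKM), the enzymes of the steps on either side of it. Gapdh lies on chromosome 6 (125161721 to 125166467, minus strand, GRCm38). With the same floor of 1 CPM, none of the 12 tested features within 100000 bases of it swung over 3-fold, and the largest swing among them was 1.54-fold. The floor hides the spread of Mir3098 among them, which had 16, 4 and 3 counts in the activated libraries.

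Gapdh also shares sequence with many copies. Of the 31-base words of its longest GENCODE M21 transcript 31.8% occurred in transcripts of other genes, 326 genes in all. The 40 features that share most with it summed to 585, 550 and 573 counts in quiescent libraries and 501, 576 and 654 counts in activated ones, so these copies did not show the swing of Gapdh itself. The part of shared sequence in the Gapdh counts was not tested.

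**Figure D3:**
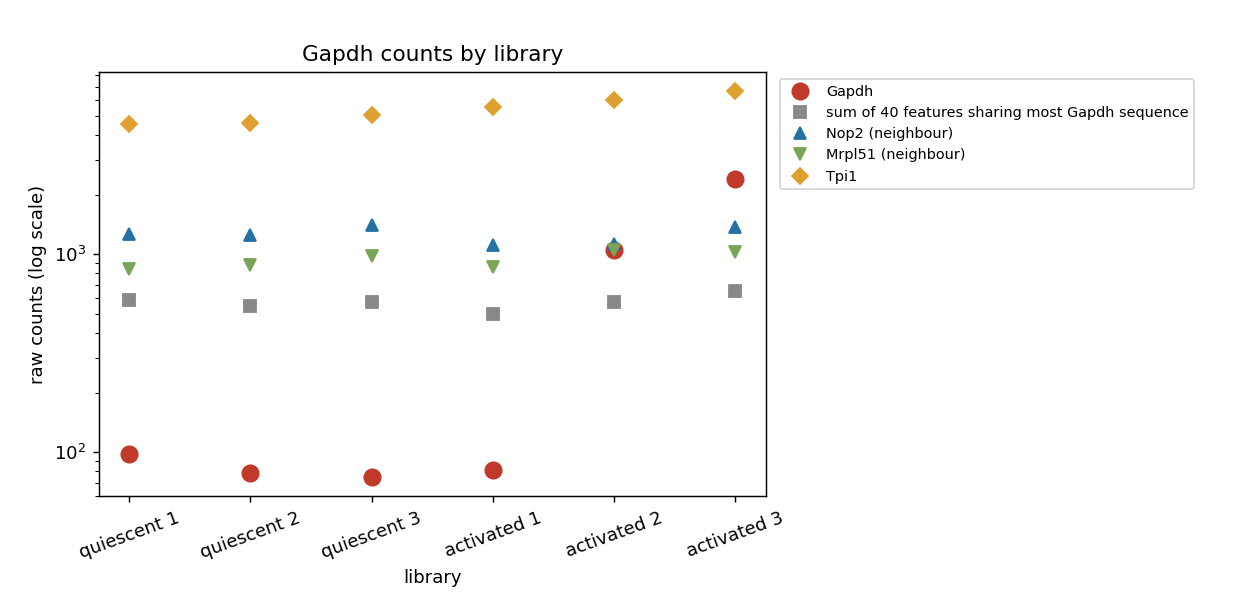
Raw counts on a log scale in each library for Gapdh, for the sum of the 40 features that share most sequence with it, for its neighbours Nop2 and Mrpl51, and for the glycolytic gene Tpi1. Gapdh is at 75 to 98 counts in 4 libraries and at 1052 and 2389 in the other 2, while the copies and neighbours vary far less.

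Other members share sequence too, so their levels are uncertain to that extent. The shared part of the longest transcript was 77.2% for Eno1, mostly with Eno1b, which had 523 to 727 counts a library beside 10105 to 14256 for Eno1. Among the other glycolytic genes it was 68.3% for Pgk1, 50.9% for Pkm, 42.1% for Pgam1, 41.4% for Ldhb, 34.2% for both Aldoa and Ldha, 18.5% for Tpi1 and 16.0% for Gpi1. Among the hypoxia-induced genes it was 74.8% for Bnip3, 39.2% for Higd1a and 18.6% for Ankrd37. The copy Gm6560 had 393 to 560 counts beside 49094 to 60916 for Pkm, and Ldha-ps2 had 48 to 106 beside 11563 to 24484 for Ldha. The library kit named in the labels does not mark strand, so strand cannot tell apart reads of genes that overlap on opposite strands. Of the exon bases, 26.4% for Ankrd37, 22.5% for Higd1a and 22.3% for Bnip3 lie over exons of genes on the opposite strand. The strand setting of the counting is unstated in the labels.

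Isozyme balance was compared as the log2 ratio of both genes' counts within a library, which no scaling changes. In 9 of 11 pairs the states did not overlap. Of all single genes tested 55.9% did not overlap either, and no such share was computed for ratios of other gene pairs. Each of these had a p of 0.1 (exact two-sided permutation test, adjusted p = 0.122 over the 11 pairs), the smallest that 3 against 3 libraries can give, so none could pass. These ratios rest on the same libraries as the folds above.

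The balance moved most for the lactate transporters and the aldolases. The log2 ratio of Slc16a3 to Slc16a1 was -3.97, -4.14 and -4.30 in quiescent and -2.70, -2.46 and -2.60 in the activated libraries, a 2.92-fold shift towards Slc16a3. The log2 ratio of Aldoc to Aldoa was -4.26, -4.38 and -4.28 in quiescent and -2.83, -2.90 and -2.86 in the activated libraries, a 2.72-fold shift towards Aldoc. Per length, Aldoc made up 5.27 ± 0.219% of both aldolases in quiescent and 13.1 ± 0.271% in activated CSCs (SD, n = 3), and Slc16a3 made up 6.59 ± 0.71% and 17.1 ± 1.19% of both transporters. In both families the minor isozyme had a larger share in every activated library than in any quiescent one, and it remained the minor one. The gene length used was 3168 bases for Aldoa, against 1549 for its longest GENCODE M21 transcript, and 2873 against 2786 for Aldoc. Such shares therefore depend on the length used, while the shift of a ratio between the states does not.

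For lactate dehydrogenase the shift was towards the major isozyme. The Ldhb share per length was 8.97 ± 0.331% in quiescent and 6.65 ± 0.206% in activated CSCs, a 1.38-fold shift of the ratio towards Ldha. Within phosphofructokinase the Pfkl share was 73.5 ± 0.901% and 77.4 ± 1.06%, and the Pfkm share 14.0 ± 0.59% and 10.5 ± 0.466%. The ratio of Pfkp to Pfkl overlapped between states (p = 0.2, exact permutation test). So did that of Hk2 to Hk1 (p = 0.5, exact permutation test), where Hk1 made up 90.3 ± 0.924% and 89.9 ± 0.638% of both hexokinases. The mean log2 ratio, activated minus quiescent, differed by 1.03 for Slc2a3 to Slc2a1, on few Slc2a3 counts, by -0.57 for Eno2 to Eno1, -0.52 for P4ha2 to P4ha1 and -0.19 for Pfkfb4 to Pfkfb3, without overlap in these 4 pairs.

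**Figure D4:**
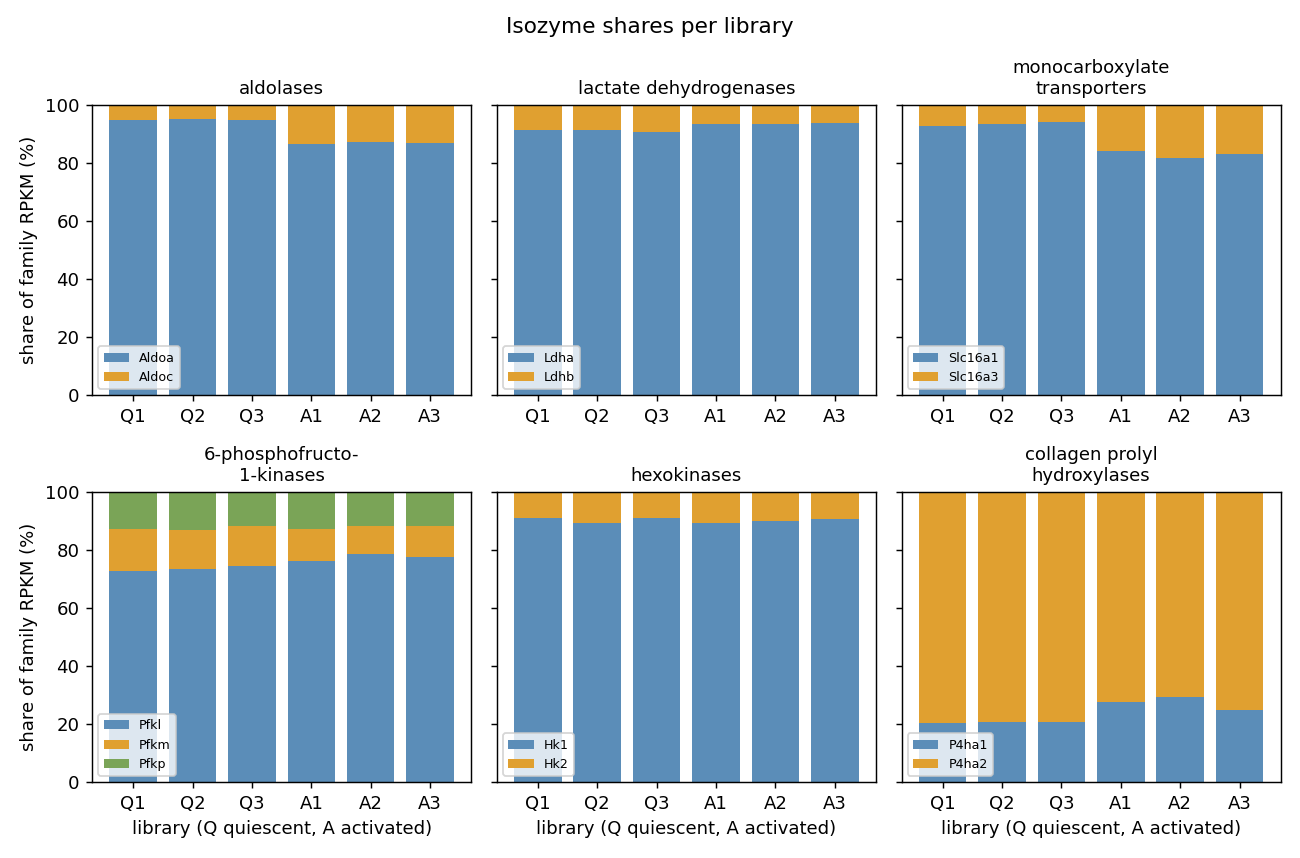
Share of each isozyme in the summed RPKM of its family, in percent, for each of 3 quiescent (Q) and 3 activated (A) libraries. Aldoc rose from about 5.27 to 13.1% of the aldolases and Slc16a3 from 6.59 to 17.1% of the monocarboxylate transporters, while the hexokinase shares overlapped.

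Of the 3 genes of oxygen sensing 1, Egln3, was called. Egln3, the prolyl hydroxylase PHD3, was at 37.3, 35.3 and 34.5 CPM in the quiescent and 64.3, 67.2 and 68.2 CPM in the activated libraries. It rose 1.87-fold with no overlap (log2 0.90, SE 0.05, adjusted p = 4.8e-10). Egln1, the main hydroxylase PHD2, was at 53.9, 57.4 and 50.6 CPM in the quiescent and 56.0, 54.4 and 60.0 CPM in the activated libraries, which overlapped (log2 0.07, SE 0.06, adjusted p = 0.33). The log2 ratio of Egln3 to Egln1 was -0.59 ± 0.09 and 0.23 ± 0.07, so Egln3 had fewer counts than Egln1 in quiescent and more in the activated libraries. Hif1a, whose product is controlled mainly as a protein, was at 125 ± 3.8 and 121 ± 3.98 CPM (adjusted p = 0.38). HIF-1 alpha protein was not measured.

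Hypoxia-induced genes of the cell surface and secretion split. Car9, the acid-exporting carbonic anhydrase IX, was at 32.0, 31.4 and 32.6 CPM in the quiescent and 53.9, 51.1 and 53.1 CPM in the activated libraries. It rose 1.65-fold (log2 0.72, SE 0.05, adjusted p = 9.6e-09). Vegfa, the angiogenic growth factor, was higher by only 1.09-fold (206 ± 9.4 and 226 ± 6.09 CPM, adjusted p = 0.017), a call lost without quiescent replicate 1 (adjusted p = 0.065) or 3 (adjusted p = 0.094). Adm, the vasodilator peptide adrenomedullin, was at 14.96, 15.6 and 15.9 CPM in the quiescent and 11.3, 10.5 and 10.6 CPM in the activated libraries. It was 1.44-fold lower with no overlap (log2 -0.52, SE 0.09, adjusted p = 1.5e-04).

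The intracellular targets went both ways as well. Ndrg1, a stress-responsive growth suppressor, was at 224, 229 and 233 CPM in the quiescent and 419, 430.3 and 442 CPM in the activated libraries. It rose 1.88-fold (log2 0.91, SE 0.04, adjusted p = 2.9e-12). Hilpda, a lipid droplet protein that inhibits fat breakdown, was at 152, 149.5 and 160.1 CPM in the quiescent and 71.9, 85.6 and 87.6 CPM in the activated libraries. It fell 1.88-fold (log2 -0.91, SE 0.07, adjusted p = 3.3e-07), with no overlap. Ankrd37, an ankyrin-repeat protein, rose 2.33-fold from 0.848 ± 0.0853 CPM on 14 to 46 counts a library (adjusted p = 0.0014). Bnip3, a mitophagy receptor, was 1.2-fold higher (adjusted p = 0.018), and not past with DESeq2 (adjusted p = 0.06) or without quiescent replicate 3 (adjusted p = 0.084) or activated replicate 3 (adjusted p = 0.055). Kdm3a, a histone demethylase, was at 68.3 ± 3.22 and 69.0 ± 2.86 CPM, and Higd1a, a mitochondrial protein, at 36.4 ± 5.12 and 32.4 ± 1.95 CPM, and neither passed (adjusted p = 0.84 and 0.15).

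Of the 4 enzymes of collagen and disulfide formation 2 were lower, 1 was higher and 1 did not pass. Plod2, the lysyl hydroxylase of collagen telopeptides, was at 139, 144 and 142 CPM in the quiescent and 106, 95.3 and 95.8 CPM in the activated libraries. It was 1.43-fold lower (log2 -0.52, SE 0.05, adjusted p = 6.9e-08). P4ha2, a catalytic subunit of collagen prolyl 4-hydroxylase, was at 97.5, 93.1 and 97.0 CPM in the quiescent and 76.3, 79.1 and 85.7 CPM in the activated libraries (log2 -0.25, SE 0.05, adjusted p = 5.9e-04). Its partner isozyme P4ha1 went the other way, from 44.3 ± 0.852 to 53.4 ± 3.95 CPM (adjusted p = 0.0012), and its share of both per length was 20.7 ± 0.336% in quiescent and 27.3 ± 2.16% in activated CSCs. Ero1l, the oxidase of the endoplasmic reticulum, was at 151 ± 6.26 and 157 ± 6.65 CPM (adjusted p = 0.3). The collagen genes Col1a1, Col1a2 and Col3a1, used here as fibroblast markers, rose from 269 to 593, 237.5 to 366 and 111 to 306 CPM. Of the other fibroblast markers, Dcn and Lum rose 1.22-fold and 1.24-fold (adjusted p = 2.6e-04 and 7.6e-04). Pdgfra, at 39.0 and 40.1 CPM, did not pass (adjusted p = 0.67). The part of fibroblasts in the collagen enzyme changes was not tested.

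The other genes of these pathways came from lists chosen for their roles, with earlier results of these data known, so their shares are descriptions too. Of 9 tested regulators of HIF 2 were higher and 2 lower, with a median log2 fold change of 0.02. These shares, 22.2% each, lie near the 24.1% higher and 23.4% lower of all genes tested. Epas1, which encodes HIF-2 alpha, was lower, at 71.3 ± 1.77 and 60.0 ± 0.121 CPM (adjusted p = 4.1e-04), and Arnt2, a dimer partner, was at 46.4 ± 1.45 and 37.6 ± 0.845 CPM (adjusted p = 2.2e-04). Arnt, the main dimer partner, was 1.12-fold higher (adjusted p = 0.012), and Cited2, which competes with HIF-1 alpha for its coactivator, rose 1.32-fold to 199.5 ± 11.8 CPM (adjusted p = 1.3e-06). Vhl, Hif1an, Egln2, Ep300 and Siah2 did not pass, with log2 fold changes from -0.07 to 0.13.

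Of 34 tested other hypoxia-induced genes 16 were higher and 8 lower (median 0.21). The share higher was 47.1%, against 24.1% of all genes tested, and the share lower 23.5%, against 23.4%. Zfp395, a zinc finger gene, rose 4.23-fold from 46.1 ± 1.81 to 195 ± 5.75 CPM (adjusted p = 1.2e-15), and Car12, the carbonic anhydrase related to Car9, rose 3.34-fold from 99.6 ± 4.49 to 333 ± 1.32 CPM (adjusted p = 2.4e-15). Hmox1, heme oxygenase, also a target of NRF2, fell from 306 ± 7.8 to 159 ± 7.35 CPM (adjusted p = 6.7e-12).

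The list of pyruvate entry also holds kinases of pyruvate dehydrogenase and the transporter gene Slc16a7. Of its 15 tested genes 7 were higher and 2 lower (median 0.11), or 46.7% and 13.3%, against 24.1% and 23.4% of all genes tested. Higher were Pdk2, Pdk3, Slc16a7, Bsg, Pdha1, Mpc2 and Pcx, and lower were Dlat and Pdhx. Pdk2 and Pdk3, sister kinases of Pdk1, rose 1.58-fold and 1.56-fold (adjusted p = 3e-06 and 3.1e-05). The remaining sister kinase, Pdk4, did not pass (log2 0.09, adjusted p = 0.065). Pdk4 was at 39.2 and 41.8 RPKM in quiescent and activated CSCs, against 4.56 and 7.65 RPKM for Pdk1. Slc16a7, the transporter MCT2, rose 3.14-fold from 1.56 ± 0.0805 CPM (adjusted p = 8.5e-07). Of 16 tested genes of the list of other glycolysis and gluconeogenesis 5 were higher and 4 lower (median 0.09), and these shares of 31.2% and 25% lie near the same background. Adpgk, the ADP-dependent glucokinase, was lower at 42.8 ± 2.3 and 32.3 ± 1.09 CPM (adjusted p = 3.2e-05), and Galm, the galactose mutarotase, rose 1.49-fold (adjusted p = 2e-04). Fbp1, of gluconeogenesis, rose from 0.38 ± 0.013 to 1.57 ± 0.287 CPM (adjusted p = 7e-05). It had only 7 counts in each quiescent and 23 to 34 in each activated library. Fbp2, the isozyme of the same step, fell 2.33-fold (adjusted p = 6.6e-04). Fbp2 was at 1.84 RPKM in quiescent and 0.783 RPKM in activated CSCs, against 0.221 and 0.914 RPKM for Fbp1. The 2 genes of this step therefore moved in opposite directions. Of 15 tested genes of glycogen and side branches 8 were higher and 6 lower (median 0.23), or 53.3% and 40%, both above that background. Gpd1l, related to glycerol phosphate dehydrogenase, rose 1.8-fold to 78.7 ± 1.58 CPM (adjusted p = 5.8e-10), Gbe1, the glycogen branching enzyme, fell from 46.6 ± 1.92 to 28.5 ± 1.4 CPM (adjusted p = 4.6e-08), and Pygb, a glycogen phosphorylase, rose 1.28-fold (adjusted p = 9.7e-06).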

How the data were processed

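RNA was sequenced from 6 libraries of mouse mammary tumour cells. The labels' protocols name Trizol for total RNA and a NEBNext Ultra kit, which does not mark strand, for the libraries. The deposited values are raw counts per gene, per the file headers, with the gene length in bases. The submitters' processing notes list featureCounts 1.5.0-p3, HISAT2 2.0.5 and StringTie 1.3.3b but not their parts in the work. The rule for reads that map to several places was not given in the sources used here. Chromosome accessions in the file are those of GRCm38.

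Tests used edgeR 4.0.16 (R 4.3.3), with TMM scaling, filterByExpr and the quasi-likelihood test in its robust form, on 15223 genes, with Benjamini-Hochberg adjustment over all of them and a threshold of 0.05. Log2 fold changes are activated over quiescent. The standard error (SE) was taken from the quasi-likelihood F. Isozyme ratios had 0.5 added to each count and an exact permutation test (scipy 1.17.1). Within each state, any pair of libraries differed beyond counting noise (chi-square per degree of freedom 4.01 to 7.99), and all were kept. Of the features, 187 had a gene ID but no name and were kept. The fit was tested on simulated data. The members and lists were chosen with earlier results of these data known. Members were named in full for the 2 with the smallest adjusted p of each role and for unstable counts, with the others given more briefly. Up to 3 genes of each related list and all tested HIF regulators were named by the same measure, and other genes were named after their values were seen. Alternatives were other scalings, filters and thresholds, limma-voom (limma 3.58.1), DESeq2 1.42.0, a replicate block, and leaving out each library.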

Additional observations from a re-analysis of the deposited data

How the results depend on the processing

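Over 16 other settings, the count of the 40 genes called higher stayed between 17 and 23 and the count lower between 5 and 7, against 21 and 7. Leaving out each library gave 17 to 23 higher and 5 to 7 lower, and 6387 to 7359 of all genes called. Of all genes, 7236 were called, with a low of 5557 at a threshold of 0.01 and a high of 7700 when genes of low counts were kept. Leaving out the genes of unstable counts, chosen after seeing the data, gave 21 higher and 7 lower. Of the 28 genes called, 22 kept their call and direction in every one of 15 refits, and the exceptions were Gpi1, Pfkm, Pfkfb4, Pgk1, Vegfa and Bnip3. Eno1 passed when genes of low counts were kept (adjusted p = 5.8e-05) and Gapdh as given above. The sign changed for Hk1 without activated replicate 1 (log2 0.006), for Hk2 without quiescent replicate 1 (-0.011) and for Kdm3a when quiescent replicate 2 (-0.004) or 3 (-0.005), or else activated replicate 3 (-0.006), was left out, and none of these was called. Over the 6 omissions these log2 values ran from -0.058 to 0.006, from -0.011 to 0.122 and from -0.006 to 0.054. The cause was not tested. Same-numbered libraries correlated at -0.039 to 0.047 in their deviations from the state means, and the other pairs of libraries across states at -0.065 to 0.037. With 3 libraries a state these values cannot settle whether the numbers pair libraries, which the labels do not say. With the replicate block 22 were higher and 7 lower, and Eno1 passed (adjusted p = 0.027). Genes near 1 CPM, such as Slc2a3 and Ankrd37, rest on few counts.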
